A study of Mus musculus with 8 samples.

Results

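The nuclear genes of oxidative phosphorylation were followed in mouse hippocampus with an extra copy of distal chromosome 16. Members were all array probes named through a RefSeq accession whose symbol begins with Nduf, Uqcr, Cox4 to Cox8 or Atp5, together with Sdha, Sdhb, Sdhc, Sdhd, Cyc1 and Cycs. This gave 128 of the 55681 non-control probes and 95 of the 20660 named genes on the array. They comprise 36 subunits of complex I and 8 complex I assembly factors, which the prefix also catches, 4 genes of complex II, 9 of complex III, 20 of complex IV, 17 of complex V and cytochrome c. Ndufa4 and its paralog Ndufa4l2 are counted with complex IV, where the Ndufa4 protein is found.

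Hippocampal RNA from 3-month-old mice of strain C57BL6/J was hybridised to 8 one-colour arrays, with 4 Ts1Cje and 4 wild-type samples. Ts1Cje mice, a model of Down syndrome, carry 3 copies of chromosome 16 from Sod1 towards the telomere. The third segment sits on a chromosome 12 that has lost its own end, and its Sod1 is not functional, so that the genotype is not a pure gain of chromosome 16 genes. The series describes 4 pairs of Ts1Cje and disomic littermates, and the labels name each array as a replicate but do not give sex. Of the 9 neuronal markers chosen for hippocampus, among them Camk2a, Slc17a7 and Prox1, all were above background on all 8 arrays. The whole tissue was measured, so that fewer cells of a type and less RNA per cell cannot be told apart.

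Oxidative phosphorylation takes place in the inner mitochondrial membrane. Complexes I and II pass electrons from NADH and succinate to ubiquinone, complex III passes them to cytochrome c, and complex IV to oxygen, while complexes I, III and IV pump protons that drive ATP synthesis by complex V. Most subunits are encoded in the nucleus and imported, and assemble with a few subunits encoded by mitochondrial DNA. Neurons use much of this ATP to restore ion gradients after firing. The human chromosome triplicated in Down syndrome holds the counterparts of Atp5o, Atp5j and Ndufv3, and in the mouse only the first of these lies in the Ts1Cje segment.

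Atp5o, measured by 1 probe, was the only member that passed the test, and it was higher in Ts1Cje. It encodes the oligomycin sensitivity-conferring protein, which joins the catalytic head of ATP synthase to its peripheral stalk, and the annotation places it on chromosome 16 distal to Sod1. On the log2 scale relative to the 75th percentile of each array, Atp5o stood at 4.72, 4.74, 4.62 and 4.69 on wild-type replicates 1 to 4 and at 5.21, 5.17, 5.13 and 5.07 on Ts1Cje replicates 1 to 4. The groups did not overlap, and gaps between single arrays were 0.32 to 0.59. The difference was 0.45 (SE 0.05), or 1.37-fold, with a 95% interval of 0.33 to 0.57 (limma, adjusted p = 0.0163 over 24025 features). An exact two-sided permutation of the arrays gave p = 0.0286, the smallest value that 70 assignments allow.

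The interval of Atp5o in the main setting, 1.26-fold to 1.49-fold, lay above 0 and just below the ratio of 3 copies to 2, which is 0.58 on the log2 scale. The estimate was 0.47 with normexp and with quantile normalization, 0.43 with array weights and 0.40 with the array median as centre. Intervals of these alternatives were not set beside the copy ratio, so that a full 3-copy ratio is not excluded. Across all features, 0.175% were called higher in Ts1Cje and 0.0208% lower. The call of Atp5o was lost without each array in turn other than wild-type replicate 3, with adjusted p between 0.0415 and 0.0941 over these 8 settings and differences of 0.43 to 0.48. It was also lost with the array median as centre (0.40, adjusted p = 0.0531) with no filter on dim probes (0.45, adjusted p = 0.0681) and with the replicate number as a block (0.45, adjusted p = 0.0944), although the labels do not tie those numbers to the littermate pairs.

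**Figure D1:**
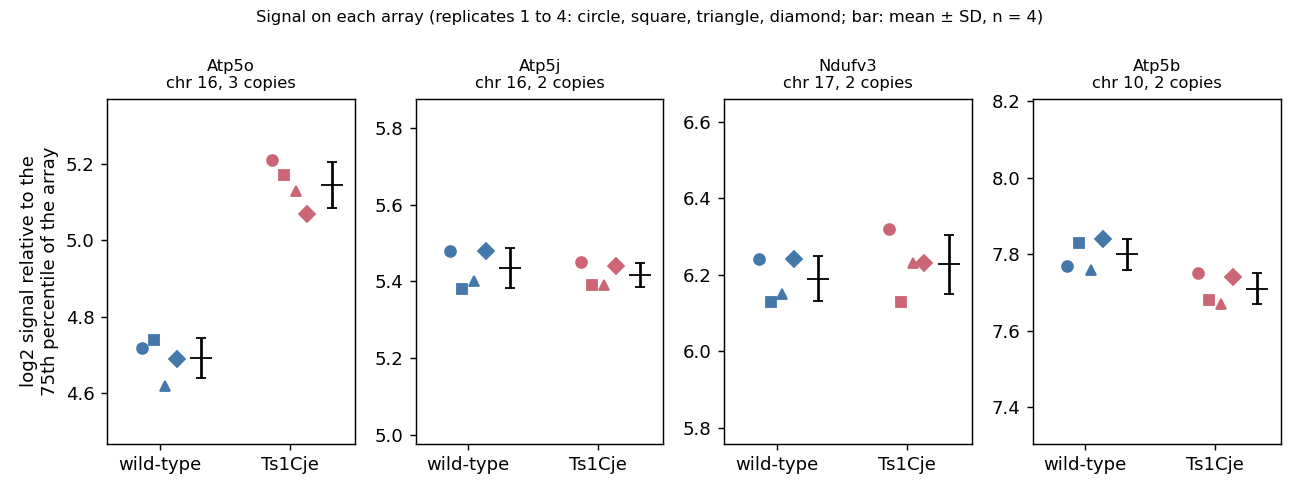
Log2 signal after subtraction of the array's 75th percentile (y axis) on each wild-type and Ts1Cje array for Atp5o, for Atp5j and Ndufv3, whose human counterparts share a chromosome with that of Atp5o, and for Atp5b; markers are replicates 1 to 4, bars the mean and SD (n = 4), and every panel spans the same range. The Ts1Cje arrays of Atp5o, 5.07 to 5.21, lie above the wild-type arrays, 4.62 to 4.74, whereas the groups overlap for Atp5j and Ndufv3, and the Ts1Cje arrays of Atp5b lie just below the wild-type arrays.

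The remaining pair of genes with counterparts on that human chromosome have 2 copies in Ts1Cje. Atp5j, which encodes coupling factor F6 of the same peripheral stalk, lies on chromosome 16 proximal to Sod1. It stood at 5.48, 5.38, 5.40 and 5.48 on the wild-type arrays and at 5.45, 5.39, 5.39 and 5.44 on the Ts1Cje arrays, and the groups overlapped. Its difference was -0.01 (SE 0.05, 95% interval -0.12 to 0.09, adjusted p = 0.939), an interval that leaves out the 3-copy ratio. Ndufv3, an accessory subunit of the NADH-oxidising arm of complex I on chromosome 17, was named after its values were seen. Its difference was 0.04 (SE 0.06, 95% interval -0.09 to 0.17) on its brighter probe and 0.08 (SE 0.08) on the other. Ndufb4, the other member on chromosome 16 and also proximal to Sod1, stood at -0.08 (SE 0.06). Related Ndufb4 genes are annotated elsewhere, so that its signal may include their transcripts.

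The promoters of 77 members were found in RefSeq's table for build GRCm38.p6, each as 250 bases before and 50 after a transcript start. Both strands were searched for 3 short cores known for regulators of nuclear mitochondrial genes: CATGCGC, part of the NRF1 site, CCGGAAG, an ETS core that GABP can bind, and AAGATGG, part of the YY1 site. The NRF1 core was present for 20.8% of members against 4.41% of the 27025 genes in the table, the ETS core for 24.7% against 9.93%, and the YY1 core for 15.6% against 7.28%. At least 1 core was found for 38 of the 77 members, or 49.4%, against 19.5% of all genes. These matches describe letters in a window and not bound sites. The members were set beside all genes in the table, and not beside genes of like expression or base composition.

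The 200 bases before the start are shown for Atp5o, the member that rose (chr16:91931631-91931830, minus strand), for Ndufa8, the complex I subunit with the smallest p (chr2:36049339-36049538, minus strand), and for Cycs, which encodes cytochrome c (chr6:50566570-50566769, minus strand). Each is written 5′ to 3′ along the gene, with capitals for matches to the 3 cores. The stretches of Ndufa8 and Cycs each hold 1 NRF1 core, starting 7 and 59 bases before the start. The window of Atp5o holds none of the 3 cores.
Atp5o: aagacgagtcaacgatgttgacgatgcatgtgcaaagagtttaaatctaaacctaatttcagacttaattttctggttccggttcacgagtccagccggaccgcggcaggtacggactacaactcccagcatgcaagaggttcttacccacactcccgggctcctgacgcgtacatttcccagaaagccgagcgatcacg
Ndufa8: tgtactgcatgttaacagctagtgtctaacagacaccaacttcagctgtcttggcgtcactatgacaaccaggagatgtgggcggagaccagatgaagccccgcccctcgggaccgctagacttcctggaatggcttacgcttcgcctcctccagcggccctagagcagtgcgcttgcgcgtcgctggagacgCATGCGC
Cycs: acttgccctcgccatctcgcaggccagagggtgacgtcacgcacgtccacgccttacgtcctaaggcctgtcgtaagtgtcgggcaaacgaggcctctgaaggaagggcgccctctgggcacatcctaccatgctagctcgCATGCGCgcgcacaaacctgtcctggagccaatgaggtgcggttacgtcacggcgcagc

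Apart from Atp5o, the members stayed within a narrow range of differences. Of the 95 genes, 94 were tested, each above background on all 8 arrays. Cox8c, a testis form of a complex IV subunit, was above background on none. The 93 tested members other than Atp5o had differences of -0.19 to 0.11, and 82 of them lay within 0.1 of 0. None of the 93 passed (limma), and 6 had an unadjusted p under 0.05, which is 6.45% against 8.73% of all features. All 6 were lower in Ts1Cje, against 4.57% of all features that were lower with such a p. None was higher with such a p, against 4.15% of all features. Of 10 equal bins of features ordered by mean signal, the brightest holds 68 of the 94 members. In that bin, 136 of 2403 features had such a p in either direction. The share of all features past the adjusted threshold in either direction was 0.196%.

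Most intervals were narrow. The 95% intervals of 87 of the 93 lay within 1.2-fold in both directions, 93.5% against 47.9% of all features, and those of 92 lay within 1.5-fold, 98.9% against 86.5%. The exception at 1.5-fold was Cox7b2 (-0.18, interval -0.94 to 0.57). At 1.2-fold the exceptions also included Ndufab1, which encodes the mitochondrial acyl carrier protein (-0.17, interval -0.39 to 0.04), Cox6b2, a testis form (lower bound -0.38), Cox8b (interval -0.27 to 0.29) and Ndufa4l2 (upper bound 0.28). Ndufab1 rested on 1 dim probe, with a wild-type mean of -1.93, against 3.49 to 7.43 for the other complex I subunits. The 1.2-fold bound was set, and Ndufab1 named, after the values were seen. The median half-width of the interval was 0.12 for all 94 tested members, or 1.09-fold, and 0.19 for all features. Spread within groups fell with brightness over all features. The median residual SD was 0.275 in the dimmest bin and 0.069 in the brightest, which holds most members. It was 0.06 for the 93 members and 0.119 for all features. Shares of narrow intervals were not taken within the brightest bin, so that the part of brightness in them was not tested.

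**Figure D2:**
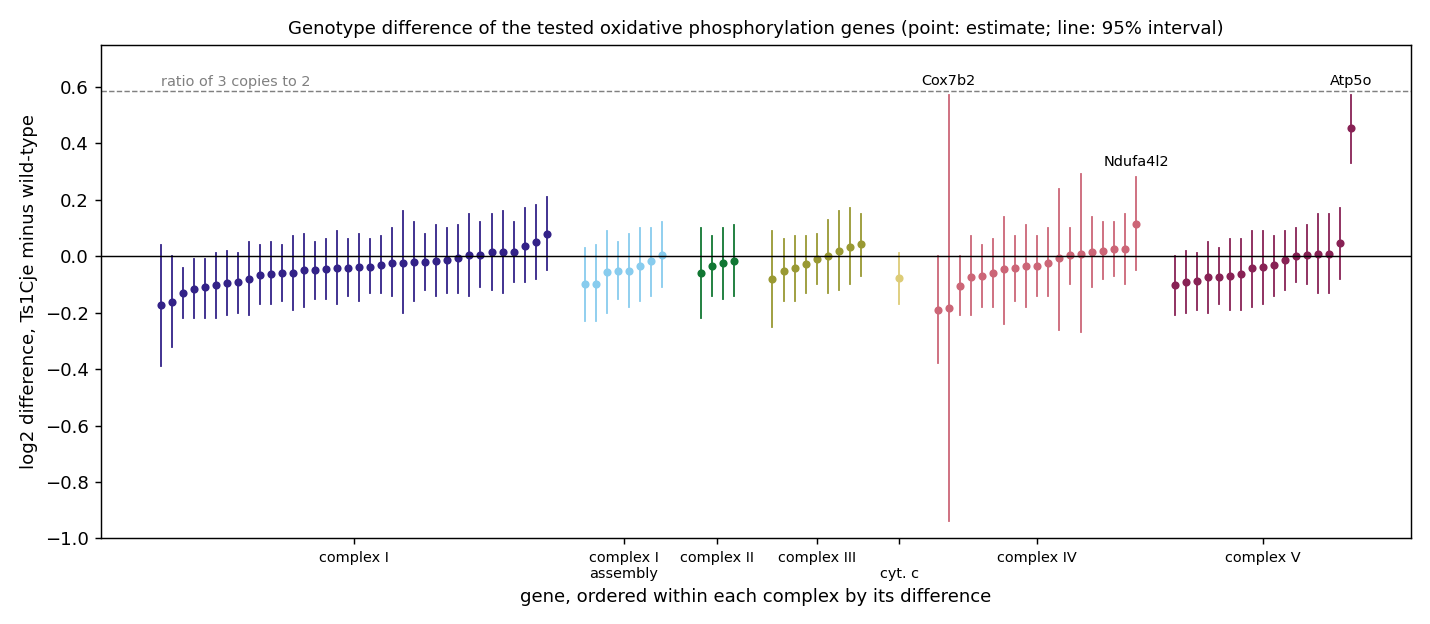
Log2 difference between Ts1Cje and wild-type (y axis; points with 95% intervals from limma, n = 4 each) for the 94 tested genes, ordered within each complex. Atp5o stands at 0.45 below the dashed line of the 3-copy ratio, and all other points lie between -0.19 and 0.11; Cox7b2 has the widest interval, -0.94 to 0.57.

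More members stood below 0 than above it, by small amounts. Of the 93 members other than Atp5o, 68 were below 0, or 73.1%, against 52.7% of all features (61 to 91 of all 94 over the alternatives, the highest with the array median as centre, where 69.0% of all features were below 0), and the median was -0.037 against -0.007 over all features. The members are bright: 68 of the 94 fell in the brightest of 10 equal bins of features. The share below 0 rose with brightness over all features, from 40.1% in the dimmest bin to 64.2% in the brightest, where the median was -0.023. Within the brightest bin, 70.6% of the members were below 0 against 64.0% of the other features, with medians of -0.033 and -0.023. Outside it, 20 of 26 members were below 0. What part brightness has in the members' shift was not tested.

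**Figure D3:**
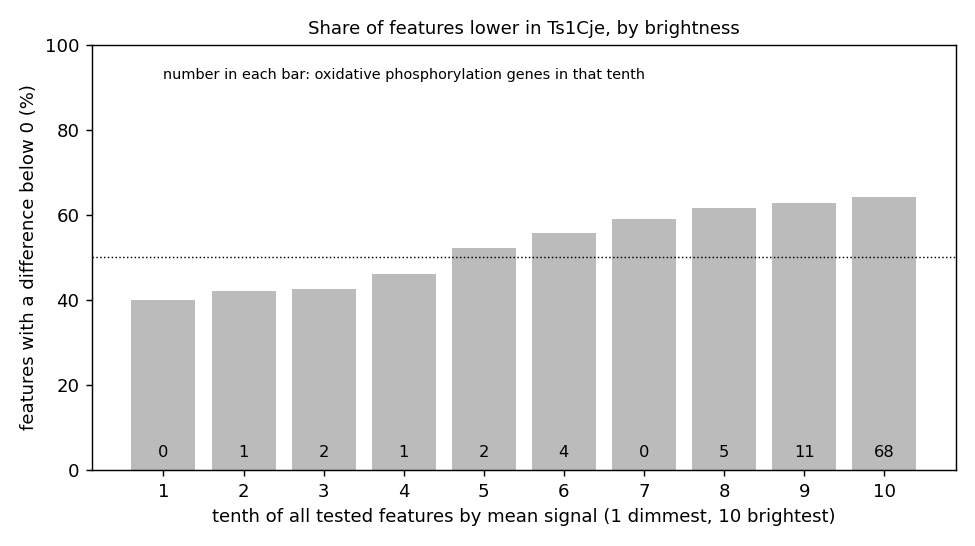
Percentage of tested features with a log2 difference below 0 (y axis, from 0) in each of 10 equal bins of features ordered by mean signal (x axis), with the number of oxidative phosphorylation genes printed in each bar and a dotted line at an even split. The share is 40.1% in the dimmest bin and 64.2% in the brightest, which holds 68 of the 94 members.

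For 9 members the groups had no overlap, or 9.57% against 6.12% of all features, with Atp5o above and 8 below. The 8 were Ndufa8, Ndufa1 and Ndufb2 of complex I, Cox7c of complex IV, Atp5b, Atp5c1 and Atp5pb of complex V, and Cycs. They make up 8.6% of the 93, against 3.7% of all features and 5.24% of the brightest bin that were lower without overlap. Atp5pb was named for this after its values were seen.

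In complex I, 28 of 36 subunits were below 0 with a median of -0.040. None passed (limma), and 4 had an unadjusted p under 0.05. Ndufa8, an accessory subunit of the proton-pumping arm, stood at 3.96, 3.97, 4.02 and 3.94 on wild-type and 3.85, 3.85, 3.83 and 3.86 on Ts1Cje arrays. All Ts1Cje arrays lay below all wild-type arrays, and the difference was -0.13 (SE 0.04, adjusted p = 0.432). Ndufa1, an X-linked accessory subunit needed for assembly, stood at 5.93, 5.86, 5.86 and 5.95 on wild-type and 5.84, 5.76, 5.75 and 5.79 on Ts1Cje arrays, without overlap. Its difference was -0.12 (SE 0.05, adjusted p = 0.532), and the other X-linked subunit of complex I, Ndufb11, stood at -0.10 (SE 0.05) and was named, like Ndufb4 above, after its values were seen.

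Ndufb2, another accessory subunit, stood at -0.11 (SE 0.05, adjusted p = 0.557). All 7 core subunits, which include the carriers of the redox centres, were below 0, with a median of -0.043. Ndufb8, the subunit often probed as a marker of assembled complex I, stood at -0.03 (SE 0.04). Of the 29 accessory subunits, 21 were below 0, with a median of -0.039.

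Of the 8 assembly factors, 7 were below 0, with a median of -0.052, and none had an unadjusted p under 0.05 (limma). The 3 with the smallest p were Ndufaf6 (-0.10, SE 0.06), Ndufaf5, which modifies the core subunit Ndufs7 (-0.10, SE 0.06), and Ndufaf1 (-0.05, SE 0.04), with adjusted p of 0.644 to 0.739. The other probe of Ndufaf5 gave 0.05 (SE 0.09).

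Complex II is succinate dehydrogenase and is encoded by the nucleus alone. The flavoprotein Sdha stood at -0.02 (SE 0.05) and the iron-sulfur subunit Sdhb at -0.02 (SE 0.05). Of the membrane anchors, Sdhc stood at -0.06 (SE 0.07) on its brighter probe and 0.04 (SE 0.05) on the other, and Sdhd at -0.04 (SE 0.04). All 4 genes lay within overlapping groups, with adjusted p of 0.817 to 0.941 (limma).

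Complex III showed the smallest median of the complexes with more than 1 gene, -0.008, and 5 of its 9 genes were below 0. The 3 with the smallest p were Uqcrq, a small accessory subunit (-0.08, SE 0.08), Uqcrfs1, the Rieske iron-sulfur protein (-0.05, SE 0.05), and Cyc1, which encodes cytochrome c1 (0.04, SE 0.05), with adjusted p of 0.763 to 0.803, and no gene of the complex had an unadjusted p under 0.05. The core protein Uqcrc2 stood at -0.01 (SE 0.04). Cytochrome c itself had little spread on its brightest probe. Cycs stood at 5.48, 5.51, 5.50 and 5.47 on wild-type and 5.40, 5.43, 5.43 and 5.41 on Ts1Cje arrays, without overlap, and the difference was -0.08 (SE 0.04, adjusted p = 0.624). The other probes of Cycs gave -0.03 (SE 0.06) and 0.09 (SE 0.09), so that the direction was not shared by its 3 probes.

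In complex IV, 12 of 19 tested genes were below 0, with a median of -0.033, and 2 had an unadjusted p under 0.05. Cox7c, a small subunit of the membrane part, stood at 5.41, 5.43, 5.34 and 5.46 on wild-type and 5.33, 5.30, 5.30 and 5.30 on Ts1Cje arrays. The lowest wild-type array lay just above the highest Ts1Cje array, and the difference was -0.11 (SE 0.04, adjusted p = 0.569). The other probes of Cox7c gave -0.03 (SE 0.06) and -0.01 (SE 0.08). Cox5a, a subunit on the matrix side, stood at 0.02 (SE 0.04), and Ndufa4 at -0.03 (SE 0.05).

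Several complex IV subunits exist in a common form and in forms restricted to certain tissues or conditions, and none of either kind passed. Differences of the common forms were 0.01 for Cox4i1, -0.04 for Cox6a1, 0.0035 for Cox6b1, -0.06 for Cox7a2, 0.02 for Cox7b and -0.07 for Cox8a, with SE of 0.04 to 0.06. The restricted forms were much dimmer. Their wild-type means ran from -3.54 for Cox7b2 to 1.92 for Cox6a2, against 3.92 for Cox6b1 to 8.83 for Cox6a1 among the common forms. Among the restricted forms, Cox4i2, an oxygen-responsive form, stood at 0.03 (SE 0.05), and the striated muscle forms at -0.01 for Cox6a2 (SE 0.11), -0.05 for Cox7a1 (SE 0.08) and 0.01 for Cox8b (SE 0.12). Cox6a2 is also expressed by parvalbumin interneurons in mouse brain, and Pvalb stood at -0.03 (SE 0.07). Ndufa4l2, a hypoxia-induced paralog also found in pericytes, stood at 0.11 (SE 0.07, adjusted p = 0.666), the highest of the 93 members other than Atp5o. Cox6b2 stood at -0.19 (SE 0.08, adjusted p = 0.569) and Cox7b2 ranged from -4.36 to -2.63 over the wild-type arrays, so that its value of -0.18 had an SE of 0.33.

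In complex V, the 16 genes other than Atp5o had differences of -0.10 to 0.05, with 11 below 0 and none with an unadjusted p under 0.05, and Atp5o stood above all of them. Among the subunits of the catalytic head, Atp5a1, the alpha subunit, stood at 0.0044 (SE 0.05), Atp5b, the beta subunit, at -0.09 (SE 0.04, adjusted p = 0.612), and Atp5c1, the central shaft, at -0.10 (SE 0.05, adjusted p = 0.579). Atp5b stood at 7.77, 7.83, 7.76 and 7.84 on wild-type and 7.75, 7.68, 7.67 and 7.74 on Ts1Cje arrays. The neighbouring subunits of Atp5o in the peripheral stalk did not share its rise: Atp5pb stood at -0.07 (SE 0.04, adjusted p = 0.654) and Atp5j at -0.01. The 3 genes for the identical c-ring protein had a median of -0.062 and ranged from -0.09 to 0.05.

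The members moved partly together from array to array, within each genotype as well as between them. Each member's deviation from its own mean over the 8 arrays was taken, and the median over the 93 members other than Atp5o was 0.054, -0.005, -0.016 and 0.032 on wild-type replicates 1 to 4. On Ts1Cje replicates 1 to 4 it was 0.023, -0.034, -0.053 and -0.004. Wild-type replicate 1 was the highest, with 82 of 93 members above their mean, and Ts1Cje replicate 3 the lowest, with 10 of 93. Ts1Cje replicate 1 lay above wild-type replicates 2 and 3, so that the groups overlapped. The median over all features lay between -0.023 and 0.016 on every array. Most members are in the brightest bin, and the other features of that bin were not followed over the arrays. The part of brightness in this shared movement was not tested.

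The groups of members followed this order to different degrees. Complex I had 34 of 36 subunits above their mean on wild-type replicate 1 and 3 of 36 on Ts1Cje replicate 2. All 16 genes of complex V other than Atp5o were below their mean on Ts1Cje replicate 3. Complex II, with only 4 genes, had its highest median on wild-type replicate 3, 0.059. Its lowest was on wild-type replicate 2, -0.056, where all 4 genes were below their mean. The 93 members stood at -0.016 and -0.005 on these arrays. On wild-type replicate 2, complexes III, IV and V without Atp5o were also below 0, at -0.008, -0.018 and -0.021. The median difference of the 94 members, -0.037, ran with 1 array left out from -0.053 without Ts1Cje replicate 1 to -0.021 without wild-type replicate 1. It was -0.019 with quantile normalization, against -0.004 over all features, -0.046 with array weights, against -0.012, and -0.087 with the array median as centre, against -0.058.

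**Figure D4:**
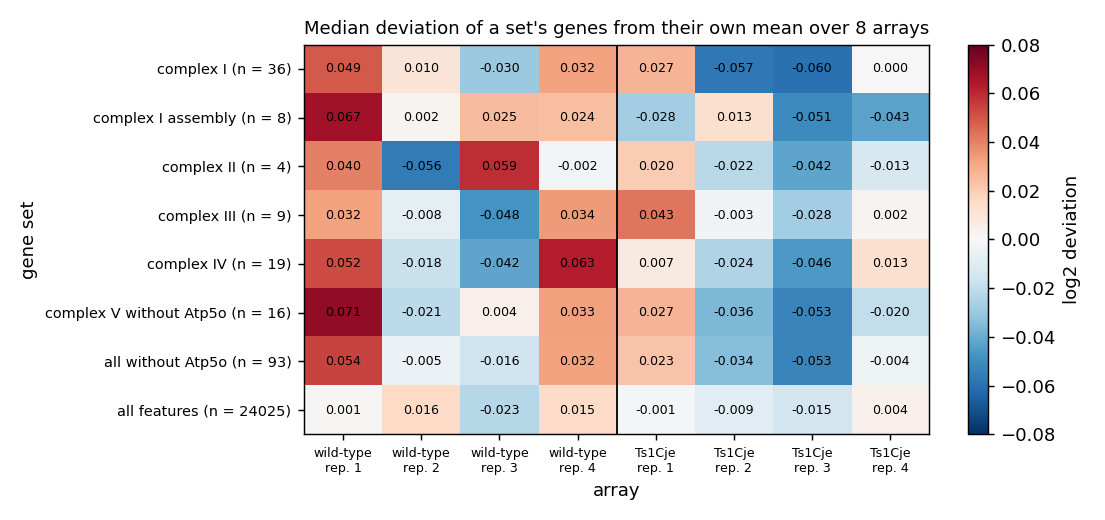
Median log2 deviation of the genes of each set from their own mean over the 8 arrays (colour and printed value), with arrays on the x axis and sets on the y axis, Atp5o left out. Wild-type replicate 1 is above 0 for every complex, Ts1Cje replicate 3 is below 0 for every complex, and all features stay between -0.023 and 0.016.

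Markers of other cell types were followed over the same arrays. Mean deviations of the 9 neuronal markers lay between -0.05 and 0.06 over the 8 arrays and were not ordered like the members, with the lowest value on wild-type replicate 1. The 4 ependymal markers stood at 0.18, 0.31, -0.05 and 0.35 on wild-type and -0.20, -0.40, -0.03 and -0.16 on Ts1Cje arrays, and the 4 blood genes ranged from -0.86 on Ts1Cje replicate 1 to 0.86 on Ts1Cje replicate 2. Astrocyte markers ranged from -0.17 to 0.15, oligodendrocyte markers from -0.14 to 0.18, microglial markers from -0.24 to 0.12, endothelial markers from -0.13 to 0.28 and choroid plexus markers from -0.43 to 0.53. Their part in the members' shifts was not tested. Ckm, the creatine kinase of striated muscle, failed the filter on dim probes, and the tested muscle genes went opposite ways, with the actin gene Acta1 at -0.23 (SE 0.06, adjusted p = 0.341) and the myosin gene Myh4 at 0.11 (SE 0.19).

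No gene of the 5 other pathway lists that could be tested passed the threshold in either direction (limma). Of 36 tested assembly factors outside the symbol rule, 18 were below 0, the median was 0.001, and 4 had an unadjusted p under 0.05. Ttc19, which acts in complex III assembly, had the smallest p of them and stood at 3.25, 3.16, 3.17 and 3.23 on wild-type and 3.06, 3.08, 3.04 and 3.01 on Ts1Cje arrays, without overlap (-0.15, SE 0.04, adjusted p = 0.372). The rest of those with such a p were higher in Ts1Cje: Nubpl (0.16, SE 0.05, also without overlap), Foxred1 (0.17, SE 0.06) and Sco1 (0.24, SE 0.09). Of the 36, 2.78% were lower without overlap, against 3.7% of all features. Lyrm7 had the largest difference, -0.72 with an SE of 0.53, and rested on wild-type replicate 1 at -2.07 against -4.64 to -4.33 on the other wild-type arrays. Lyrm7, Nubpl, Foxred1 and Sco1 were named after their values were seen. No probe was matched to the 13 mitochondrially encoded subunits, which were not analysed here.

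Of 13 transcriptional regulators of mitochondrial genes, 8 were below 0 with a median of -0.023, and 2 had an unadjusted p under 0.05. Tfb1m, a mitochondrial ribosomal RNA methyltransferase, had the smallest p and stood higher without overlap (0.17, SE 0.05, adjusted p = 0.404). It was the only 1 of the 13 without overlap, and 2.42% of all features were higher without overlap. Gabpa, Nrf1 and Ppargc1a were named after their values were seen because of their known part in this pathway. Gabpa, the ETS subunit of GABP, which lies on chromosome 16 proximal to Sod1, stood at -0.15 (SE 0.06, adjusted p = 0.569). Nrf1 stood at -0.02 (SE 0.09) and the coactivator gene Ppargc1a at 0.02 (SE 0.09).

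Of 15 citrate cycle and pyruvate dehydrogenase genes, 12 were below 0, with a median of -0.036, and 1 had an unadjusted p under 0.05. Idh3b, a subunit of NAD-dependent isocitrate dehydrogenase, stood lower without overlap (-0.14, SE 0.04, adjusted p = 0.438). So did Pdhb (-0.08, SE 0.05, adjusted p = 0.647), named after its values were seen. These 2 are 13.3% of the list, against 3.7% of all features that were lower without overlap. The 16 glycolysis genes were split evenly, 8 below and 8 above 0, with a median of 0.001, and Hk1, the main brain hexokinase, had the smallest p (0.17, SE 0.08, adjusted p = 0.582). Of 18 genes for the outer membrane, carriers and import, 12 were below 0 with a median of -0.012. The import receptor gene Tomm20 had the smallest p (-0.11, SE 0.05, adjusted p = 0.584).

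Probes of the same gene differed by small amounts, as did the members from each other. For the 25 members with several probes above background, 58 probes in all, the median gap between a gene's lowest and highest probe was 0.03 and the largest was 0.16, for Cycs. Probes differed in sign for 6 genes, and none of these gaps exceeded 0.3. That limit says little here, because the members other than Atp5o ranged only from -0.19 to 0.11. Many of these genes have processed pseudogenes, and 19 of the 117 symbols that match the rule in the name table are pseudogenes, so that a probe may also detect related transcripts.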

How the data were processed

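RNA (0.1 µg) of each sample was labelled with Cy3, per the labels' protocols. Agilent Feature Extraction 10.10.1.1 read the scans on a design of build mm9, per the file headers. The authors deposited spot intensities on a linear scale, corrected by that software for background within the array and not normalized between arrays, with flags as other columns. All arrays shared 1 slide and 1 scan. Slide columns hold 1 genotype each and cannot be told apart from it.

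Outlier and control spots were left out, and no non-control spot was saturated. No member lost a probe to a flag; 13 other probes lost values on some arrays, which the fit dropped. Log2 processed signals were averaged over a probe's spots and set relative to the array's 75th percentile. A probe stayed if 1 group or both had it well above background on all 4 arrays, which left 32596 probes and 24025 features, each gene by its brightest. Between 59.9% and 63.1% of probes were above background on each array. Names came from RefSeq's table for GRCm38.p6, which matched 27235 probes. Its gene coordinates served for order only. The 8 arrays limit the precision.

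The test was that of limma 3.58.1 (R 4.3.3), with Benjamini-Hochberg adjustment over all features and a threshold of 0.05. P-values measure the spread between labelled replicates, taken as separate mice. The fit was tested on simulated data. Promoters and plots used Python 3.11.15 with pandas 2.3.3 and matplotlib 3.10.9.

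Named genes were Atp5o and Atp5j, members past the threshold, the 3 with the smallest p in each complex, common and restricted complex IV forms, complex II and cytochrome c, 5 subunits used as antibody markers, and the smallest p of each pathway list. Exceptions are stated, and 1 gene is not reported by name here. Members and lists were chosen with earlier results of these data known. Alternatives were normexp (offset 50, on median signals), quantile normalization, centring on the array median, other rules and filters for probes, array weights, a trended and robust prior, the replicate number or slide row as a block, and each array left out. Intervals are the fit's moderated 95% intervals.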

Additional observations from a re-analysis of the deposited data

Results flagged for a closer look

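An array stood apart from the rest of its group for 2 of 80 sets of 4 arrays, judged by its gap to the nearest array as a share of the whole range (Dixon). Chance at 1 in 20 gives 4.0 such sets. Cox6b1 stood at 3.86 on wild-type replicate 3 and at 3.94 on the other wild-type arrays (ratio 0.90). Cox7c stood at 5.33 on Ts1Cje replicate 1 and at 5.30 on the other Ts1Cje arrays (ratio 0.94). Both gaps are under 0.1 on the log2 scale.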

How the results depend on the processing

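The count of features called between the genotypes was 47. It was 25 with the array median as centre, 23 with no filter on dim probes, 84 with array weights, 71 with a trended and robust prior, 98 at an adjusted p under 0.1, and 13 to 44 with 1 array left out. It was 65 with normexp, 60 with quantile normalization (47 higher and 13 lower), 59 with probes required on all 8 arrays, 58 with the mean over probes, 45 with slide row as a block and 39 with the second brightest probe. The number of members called was 0 in place of 1 with the array median, with no filter and when Atp5o was left out, and 0 to 1 with 1 array left out.

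The design text speaks of littermate pairs, but the labels do not tie replicate numbers to litters. Same-numbered arrays deviated together with r of 0.237, 0.194, 0.106 and 0.05 over features, and other-numbered arrays had r of -0.258 to 0.141. The rule for pairing was that every same-numbered r exceed 0.1. The r of 0.05 fell short, so that the numbers were not taken as pairs. Not every array correlated best with its own number. With a replicate block, 1 feature and 0 members were called, and Atp5o stood at 0.45 (adjusted p = 0.0944).

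Atp5o ranged from 0.43 to 0.48 with 1 array left out. Its call was lost in 7 of those 8, with the array median (0.40) and with no filter (0.45). The cause was not tested. Its adjusted p over all alternatives ran from 0.000989 to 0.0944.

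With the array median as centre, which moved the median of all features to -0.058, Atp5a1 (-0.05), Cox4i1 (-0.04), Cox4i2 (-0.03), Cox5a (-0.03), Cox6b1 (-0.05), Cox7b (-0.03), Cox8b (-0.04), Cyc1 (-0.0076) and Ndufv3 (-0.01) changed sign. With array weights, Atp5a1 (-0.0029), Cox4i1 (-0.02), Cox6b1 (-0.0061) and Cox8b (-0.07) did. With normexp, Atp5a1 (-0.0036), Cox6a2 (0.02), Cox8b (-0.02) and Sdha (0.0054) did, with quantile normalization Cox4i1 (-0.0092), Cox6a2 (0.0079), Cox8b (-0.02) and Uqcrc2 (0.0034), and with the second brightest probe Ndufaf5 (0.05) and Sdhc (0.04). With 1 array left out, values spanned 0 for Atp5a1 (-0.03 to 0.02), Atp5j (-0.03 to 0.0009), Cox4i1 (-0.02 to 0.04), Cox4i2 (-0.0022 to 0.05), Cox6a2 (-0.08 to 0.05), Cox6b1 (-0.02 to 0.02), Cox7a1 (-0.10 to 0.02), Cox7b (-0.0008 to 0.04), Cox7b2 (-0.46 to 0.12), Cox8b (-0.06 to 0.12), Sdha (-0.05 to 0.01), Sdhb (-0.06 to 0.0023) and Sdhc (-0.10 to 0.006). None of these genes was called in any setting.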
